A study of Mus musculus with 16 samples.

Results

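The genes described here are 10 genes of the endothelium, the cell layer that lines blood vessels: Flt1, Kdr, Tek, Tie1, Eng, Cdh5, Pecam1, Esam, Plvap and Egfl7. They were taken by symbol from the 24091 genes of each deposited table, and all 10 were present in both tables and passed the filter on low counts in both tissues. Messenger RNA of mice was sequenced in 16 libraries. The islet libraries came from male mice aged 60 weeks, 5 of them conditional Tff2 knockouts (KO; Pdx1:Cre;Tff2fl/fl) and 5 controls (Tff2fl/fl). The pancreas libraries came from whole pancreata at embryonic day 16.5 (E16.5), 3 from KO embryos (Pdx1:Cre;Tff2fl/fl) and 3 from control embryos (Tff2fl/fl). All 4 groups carry the floxed Tff2 allele, and the controls carry no Cre by their labels. Tff2 encodes trefoil factor 2, a secreted peptide of mucous epithelia. The Cre transgene is driven by Pdx1, a gene of the pancreatic epithelium, so the endothelium is not the lineage in which this Cre is known to act. Each library carries its own animal number, litters are not given, and the p-values measure the spread between animals.

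Endothelial cells read growth signals through receptor tyrosine kinases. Secreted VEGF acts on the receptors encoded by Kdr and Flt1, and angiopoietins act on the receptor encoded by Tek, whose partner is encoded by Tie1. Adhesion proteins such as VE-cadherin, the product of Cdh5, hold the cells together, and the thin endothelium of endocrine glands carries pores that are closed by a diaphragm made of the Plvap protein. In the pancreas, vessels lie close to the budding epithelium in the fetus and form a dense fenestrated capillary bed in islets, where endocrine cells are a known source of VEGF-A.

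By the coordinates of the deposited tables, with the build mm10 taken from the submitters' processing notes, Flt1 spans chr5:147562196-147725988 and Kdr chr5:75933270-75978428, both on the minus strand. Tek spans chr4:94739289-94874976 on the plus strand and Tie1 chr4:118471191-118489849 on the minus strand. Eng spans chr2:32646595-32682669 and Egfl7 chr2:26581056-26592682, both on the plus strand. Cdh5 spans chr8:104101625-104144502 on the plus strand, Plvap chr8:71497753-71511769 and Pecam1 chr11:106654213-106750628 on the minus strand, and Esam chr9:37528089-37538319 on the plus strand. The tables hold a single count per gene and library, so no value here belongs to a single exon or isoform.

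Total counts were 14866194 to 17723385 in the 3 KO pancreata, against 17874060 to 22699934 in the 3 control pancreata, so the ranges did not overlap. They were 22595400 to 32385042 in KO islets, against 23063661 to 31721424 in control islets. None of the 10 genes had fewer than 399 reads in any library. Islet hormone genes, which define the islet samples, summed to 143300 to 166500 CPM (counts scaled to library size) in KO islets, against 148200 to 179300 CPM in control islets. Tff2 itself had 51, 147 and 27 reads in the KO pancreata, against 848, 406 and 611 reads in the control pancreata, a log2 fold change of KO against control of -2.80 (adjusted p = 0.0297). This and every later adjusted p comes from the quasi-likelihood F test of edgeR with Benjamini-Hochberg adjustment over all genes tested, unless another tool is named, and the threshold was 0.05. It had 0, 12, 16, 8 and 2 reads in KO islets, against 25, 69, 30, 135 and 62 reads in control islets, a log2 fold change of -3.07 that missed the threshold (edgeR, adjusted p = 0.0884). The KO pancreas of animal 18 had the Y-linked gene Ddx3y at 134 CPM and Xist at 1.56 CPM, against 0 to 0.173 CPM of Ddx3y and 1088 to 1809 CPM of Xist in the other 5 pancreata.

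The start regions of the genes whose calls are described below are shown with the motif matches they hold. Each window is 300 bases long and lies mostly upstream of a transcription start, read on the gene's own strand from the RefSeq table of GRCm38.p6, the assembly also called mm10. Capitals mark GGAA and its reverse complement TTCC, the core that ETS transcription factors bind in endothelial genes. The Flt1 window lies at chr5:147725962-147726261 on the minus strand, the Eng window at chr2:32646345-32646644 on the plus strand, and the first of 3 Egfl7 windows at chr2:26580833-26581132 on the plus strand. An intron of Egfl7 also holds the microRNA miR-126a, whose 3p arm lies at chr2:26591402-26591423 on the plus strand and is shown with its seed, bases 2 to 8, in capitals.
Flt1: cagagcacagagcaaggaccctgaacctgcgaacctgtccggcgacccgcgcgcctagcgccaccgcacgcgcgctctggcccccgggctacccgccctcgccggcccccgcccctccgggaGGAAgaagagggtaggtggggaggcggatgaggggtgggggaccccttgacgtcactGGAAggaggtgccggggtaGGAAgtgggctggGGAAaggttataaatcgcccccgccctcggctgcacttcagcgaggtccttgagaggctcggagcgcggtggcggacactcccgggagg
Eng: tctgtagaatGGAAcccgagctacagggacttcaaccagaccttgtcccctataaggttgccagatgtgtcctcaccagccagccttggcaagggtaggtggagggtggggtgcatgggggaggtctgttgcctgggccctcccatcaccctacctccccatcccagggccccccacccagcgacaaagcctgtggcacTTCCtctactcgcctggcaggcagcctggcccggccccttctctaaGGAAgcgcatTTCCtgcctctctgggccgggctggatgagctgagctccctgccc
Egfl7: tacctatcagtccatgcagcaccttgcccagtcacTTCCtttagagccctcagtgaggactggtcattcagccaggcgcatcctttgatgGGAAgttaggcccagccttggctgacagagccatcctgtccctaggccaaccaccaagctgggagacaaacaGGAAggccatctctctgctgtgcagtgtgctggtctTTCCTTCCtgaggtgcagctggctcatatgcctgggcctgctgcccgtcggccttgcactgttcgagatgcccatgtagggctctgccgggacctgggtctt
mmu-miR-126a-3p: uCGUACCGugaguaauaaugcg

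The RefSeq table matched 6 of the 10 genes with 8 windows, 3 of them of Egfl7. The core GGAA was found on one strand or the other in 8 of 8 windows, with a median of 4 matches, but it was also found in 96.0% of all 32851 windows of that length in the table, with a median of 3. Its longer form CAGGAAG, which contains the core, was found in 2 of 8 windows, both of Egfl7, against 13.3% of all windows. The TATA sequence TATAAA was found in the Flt1 window only, 1 of 8, against 13.6% of all windows. The SOX-type sequence AACAAT was found only in the Tek window, 1 of 8, against 10.7% of all windows. The Kruppel-type sequence CACCC was found in 6 of 8 windows, against 57.5% of all windows. Both strands were searched for each. These matches are letters in a window and say nothing of which factor binds there. The annotated miR-126a hairpin had 0 to 4 reads per library in islets and 0 to 2 in pancreata, and the libraries were made from polyadenylated RNA, so its level was not measured.

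Levels were first compared among the genes, per kilobase of gene length (RPKM, from the length that the deposited tables give), because CPM also depends on length. In islets Plvap was the most abundant of the 10, with 80.0 ± 4.49 RPKM in KO islets and 73.8 ± 3.44 RPKM in control islets (SD, n = 5 each). Kdr followed with 33.6 RPKM in KO islets and 31.96 RPKM in control islets, then Flt1 with 29.7 and Eng with 25.8 RPKM in KO islets, against 29.0 and 23.7 RPKM in control islets. Tek was the least abundant, with 6.49 RPKM in KO islets and 5.86 RPKM in control islets. In the order of KO islets, the neighbours Kdr and Flt1, Flt1 and Eng, and Egfl7 and Cdh5 overlapped between libraries. In control islets the neighbours Kdr and Flt1, and Eng and Pecam1, overlapped, while every other pair of neighbours was separate.

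In E16.5 pancreata the order was led by the junction genes. Cdh5 had 45.9 ± 4.64 RPKM in KO pancreata and 61.3 ± 10.4 RPKM in control pancreata (SD, n = 3 each), and Pecam1, the adhesion molecule CD31, had 36.9 RPKM in KO pancreata and 49.9 RPKM in control pancreata. Plvap had 25.8 RPKM in KO pancreata and 41.5 RPKM in control pancreata. Flt1 stood last, with 6.42 RPKM in KO pancreata and 9.22 RPKM in control pancreata. Most neighbours in that order overlapped, and in the KO pancreata only Eng and Egfl7, Egfl7 and Kdr, and Tek and Flt1 were separate. Of the VEGF receptors, Kdr was at rank 2 and Flt1 at rank 3 of 10 in both islet groups, while in pancreata Kdr was at rank 6 in the KO and 7 in the control and Flt1 at rank 10 in both. The tissues differ in age, sex and dissection, and a whole pancreas and an isolated islet hold different cells. The islets were male, while Xist was high and Ddx3y near 0 in every pancreas except KO 18. These orders therefore describe the libraries and were not tested against each other.

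**Figure D1:**
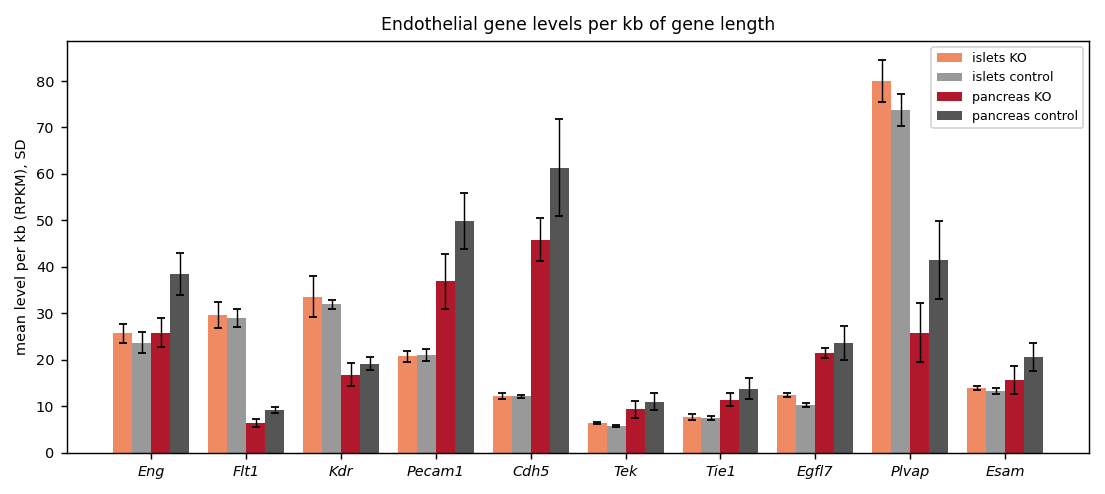
Mean level per kb of gene length (RPKM, vertical axis) of each endothelial gene in KO islets, control islets, KO pancreata and control pancreata; error bars are SD (n = 5 libraries per islet group, n = 3 per pancreas group). Plvap led in islets, with 80.0 RPKM in KO and 73.8 RPKM in control islets, and Cdh5 led in pancreata, with 45.9 RPKM in KO and 61.3 RPKM in control pancreata.

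In E16.5 pancreata, 2 of the 10 endothelial genes fell in the KO: Eng, by 0.58 on the log2 scale, and Flt1, by 0.53. Of all 14914 genes tested, 2.68% fell. The other 8 genes did not pass the threshold, although all 10 had a fold change below 0, as did 50.2% of all genes (7 of 10 when scaled to 25 further endothelial genes and 6 of 10 when scaled to pan-epithelial genes), and the median of the 10 was -0.41 against -0.00 over all genes. At an unadjusted p under 0.05, 6 of the 10 were lower, against 12.4% of all genes. Whole tissue was sequenced, and fewer endothelial cells and less RNA per endothelial cell cannot be told apart. Levels are given from here as CPM on the library size scaled by the trimmed mean of M values (TMM).

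Among the VEGF receptors, Flt1 encodes VEGFR1, which binds VEGF tightly and also occurs as a soluble form. Flt1 had 43.9, 54.1 and 44.6 CPM in the KO pancreata of animals 01, 18 and 19, against 71.9, 63.6 and 69.4 CPM in the control pancreata of animals 02, 08 and 13. All 3 KO pancreata were below every control, and Flt1 fell by 0.53 on the log2 scale (SE 0.0930, edgeR adjusted p = 0.0265). Kdr encodes VEGFR2, the main signalling receptor for VEGF-A. It had 121.8, 164.3 and 144.5 CPM in KO pancreata, against 170.8, 149.4 and 170.8 CPM in control pancreata. The groups overlapped through the KO of animal 18, and the log2 fold change of Kdr was -0.19, with a 95% interval from -0.44 to 0.06 (adjusted p = 0.319).

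Eng encodes endoglin, a co-receptor for BMP9 and other ligands of the TGF-beta family. Eng had 82.9, 104.4 and 88.3 CPM in KO pancreata, against 151.7, 119.9 and 139.0 CPM in control pancreata. Here too all 3 KO pancreata were below every control, and Eng fell by 0.58 (SE 0.111, adjusted p = 0.0297). Eng overlaps Fpgs on the other strand by 61 exon bases, 1.71% of the Eng exons in GENCODE M21, and whether counting used the strand is not known here. The calls of both genes turn on single libraries. Eng and Flt1 missed the threshold when any 1 control was left out, with adjusted p of 0.1496 and 0.143 without control 02, 0.0893 and 0.0998 without control 08, and 0.0841 and 0.0785 without control 13, and also without KO 19, with 0.0622 and 0.0504. Without a control, few genes of the whole table passed: 0 without control 02, 4 without control 08 and 0 without control 13, against 959 with all libraries.

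The angiopoietin receptor Tek, also called TIE2, had 35.6, 53.0 and 42.6 CPM in KO pancreata, against 52.6, 42.7 and 59.6 CPM in control pancreata, and the groups overlapped (log2 fold change -0.24, adjusted p = 0.383). Tie1, its partner receptor, had 41.4, 52.2 and 51.1 CPM in KO pancreata, against 68.1, 49.0 and 57.3 CPM in control pancreata, and overlapped as well (-0.27, adjusted p = 0.244). Neither receptor passed the threshold.

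Of the adhesion genes, Cdh5 had 163.7, 200.6 and 182.3 CPM in KO pancreata, against 281.0, 199.2 and 251.1 CPM in control pancreata (log2 fold change -0.42, adjusted p = 0.0900). Pecam1 had 129.8, 174.9 and 139.0 CPM in KO pancreata, against 222.0, 174.1 and 203.5 CPM in control pancreata (-0.44, adjusted p = 0.0800). In both genes KO 01 and KO 19 were below every control, and KO 18 lay just above control 08. Esam, an immunoglobulin-family adhesion molecule of endothelial junctions, had 22.7, 33.3 and 31.1 CPM in KO pancreata, against 42.1, 31.8 and 41.2 CPM in control pancreata (-0.41, adjusted p = 0.159). None of the 3 adhesion genes passed.

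Plvap had the largest fold change of the 10 in pancreata and varied most between the libraries of a group. It had 40.7, 65.7 and 49.3 CPM in KO pancreata, against 95.5, 64.2 and 90.7 CPM in control pancreata. The log2 fold change was -0.69, with a 95% interval from -1.14 to -0.24, and it missed the threshold over all genes (adjusted p = 0.0741). Without KO 18, the library with high Ddx3y, Plvap had a log2 fold change of -0.89 and Pecam1 one of -0.57, and both passed (adjusted p = 0.0408 and 0.0373). Egfl7 encodes a secreted protein that endothelial cells lay down around themselves. It had 33.2, 34.0 and 36.6 CPM in KO pancreata, against 41.8, 31.4 and 41.3 CPM in control pancreata, and the log2 fold change of -0.14 was the smallest in size of the 10 (adjusted p = 0.467). In GENCODE M21, 14.1% of the Egfl7 exon bases are shared with Gm20532 on the same strand, which is not an entry of the deposited tables, so the division of such reads is uncertain.

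Taken by library rather than by gene, KO 01 was lowest, with 9 of the 10 genes below the lowest control, followed by KO 19 with 8 and KO 18 with 2. Averaged over the 10 genes, the log2 level was 0.59 below the control mean in KO 01, 0.19 below in KO 18 and 0.39 below in KO 19. Among the controls the same average was 0.15 above in control 02, 0.23 below in control 08 and 0.08 above in control 13, so control 08 lay slightly under KO 18. Between groups, only Eng and Flt1 of the 10 were free of overlap, 2 of 10 against 16.1% of all genes that were lower in every KO. The 10 genes together took 0.0762% to 0.0930% of all reads in KO pancreata, against 0.0909% to 0.116% in control pancreata.

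**Figure D2:**
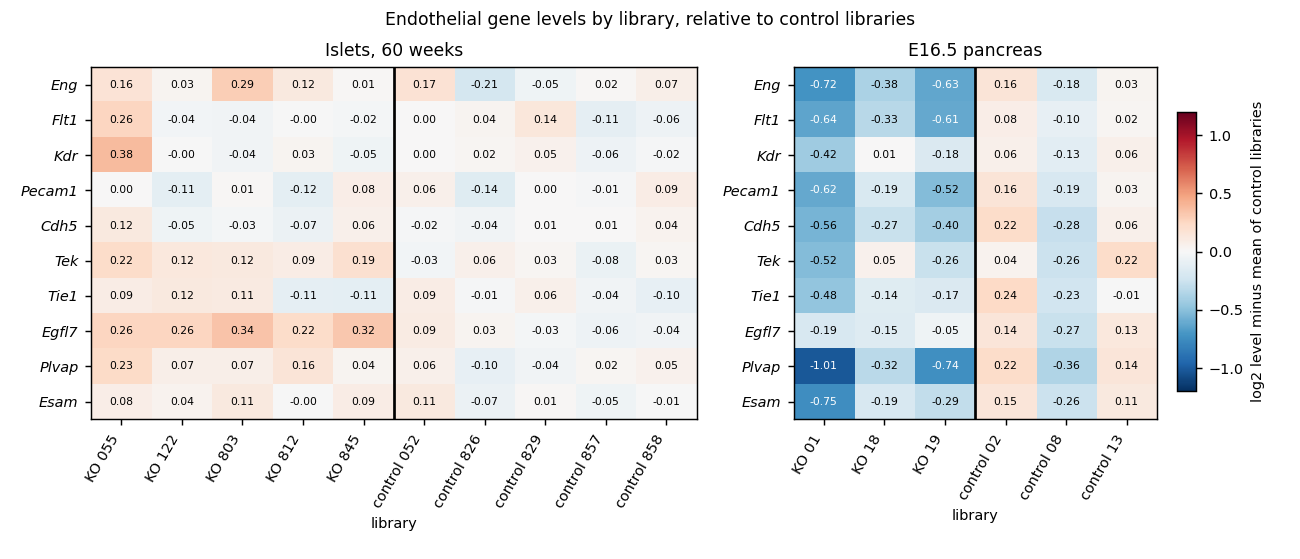
Log2 level of each endothelial gene (rows) in each library (columns), minus the mean of the control libraries of the same tissue; the islets are on the left and the E16.5 pancreata on the right, with KO libraries left of the black line and control libraries right of it, and the colour bar is in log2 units. In the pancreata KO 01 is lowest for most genes, down to -1.01 for Plvap, and control 08 is the lowest control for all 10. In islets only the Egfl7 and Tek rows are above 0 in all 5 KO libraries without overlap with the controls.

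In islets at 60 weeks, 1 of the 10 genes rose in the KO: Egfl7, by 0.28 on the log2 scale. Of all 14219 genes tested, 0.113% rose. A fold change above 0 was found for 9 of the 10 genes, as for 49.3% of all genes (6 of 10 when scaled to the further endothelial genes and 8 of 10 with limma-voom), and the median of the 10 was 0.07. Without KO 055, 6 of the 10 were above 0 and the median was 0.03, so that this library carries part of both values. Egfl7 had 19.9, 19.8, 21.0, 19.3 and 20.7 CPM in the KO islets of animals 055, 122, 803, 812 and 845, against 17.7, 16.9, 16.3, 15.9 and 16.1 CPM in the control islets of animals 052, 826, 829, 857 and 858. All 5 KO islets were above every control, and the log2 fold change was 0.28 with a 95% interval from 0.18 to 0.39 (SE 0.0483, edgeR adjusted p = 0.0498). The call lies at the threshold: it was lost when any 1 of the 10 islet libraries was left out, with adjusted p between 0.0658 and 0.167, while the fold change stayed between 0.27 and 0.31. The coefficient of variation of Egfl7 was 3.44% in KO islets and 4.42% in control islets, below the 4.41% and 4.83% that counting error alone gives at its depth, so counting error limits the precision of this value.

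Tek was the other endothelial gene without overlap in islets. It had 31.8, 29.9, 29.7, 29.1 and 31.2 CPM in KO islets, against 26.7, 28.5, 27.9, 26.0 and 27.9 CPM in control islets. Its log2 fold change of 0.15, with a 95% interval from 0.05 to 0.24, did not pass (adjusted p = 0.403). Thus 2 of 10 genes were higher in every KO, against 0.781% of all genes. At an unadjusted p under 0.05 there were 3 of the 10, Egfl7, Tek and Plvap, all with a positive fold change, against 7.18% of all genes in either direction.

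Plvap had 174.4, 155.9, 156.1, 165.1 and 152.1 CPM in KO islets, against 154.7, 138.4, 144.3, 150.7 and 153.9 CPM in control islets, with overlap (log2 fold change 0.11, adjusted p = 0.628). Eng, one of the 2 genes that fell in pancreata, had 93.8, 85.8, 102.9, 90.9 and 84.7 CPM in KO islets, against 94.5, 72.6, 81.2, 84.8 and 88.02 CPM in control islets (0.12, 95% interval from -0.03 to 0.28, adjusted p = 0.782). Flt1 had 256.4, 208.7, 208.4, 214.1 and 210.5 CPM in KO islets, against 214.3, 219.5, 235.3, 198.8 and 204.8 CPM in control islets (0.03, 95% interval from -0.11 to 0.18, adjusted p = 0.963). Its highest KO value came from the islets of animal 055, and the other 4 lay within the control range.

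The other 5 genes overlapped between the groups and none passed. Kdr had 262.7 to 353.6 CPM in KO islets, against 261.2 to 281.9 CPM in control islets, the highest again in KO 055 (log2 fold change 0.07, 95% interval from -0.09 to 0.23). Cdh5 had 45.8 to 52.4 CPM in KO islets, against 46.8 to 49.6 CPM in control islets (0.01, 95% interval from -0.09 to 0.10). Tie1 had 29.4 to 34.5 CPM in KO islets, against 29.7 to 33.7 CPM in control islets (0.02, 95% interval from -0.11 to 0.15). Esam had 24.6 to 26.6 CPM in KO islets, against 23.4 to 26.6 CPM in control islets (0.07, 95% interval from -0.04 to 0.17). Pecam1, the one gene with a fold change below 0, had 77.8 to 89.4 CPM in KO islets, against 76.4 to 89.8 CPM in control islets (-0.03, 95% interval from -0.14 to 0.09). For every gene described here, the lower end of the islet interval lay above the pancreas estimate. The error of the pancreas estimate is not counted in this, and for Kdr, Tek, Tie1 and Egfl7 the pancreas interval included 0.

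**Figure D3:**
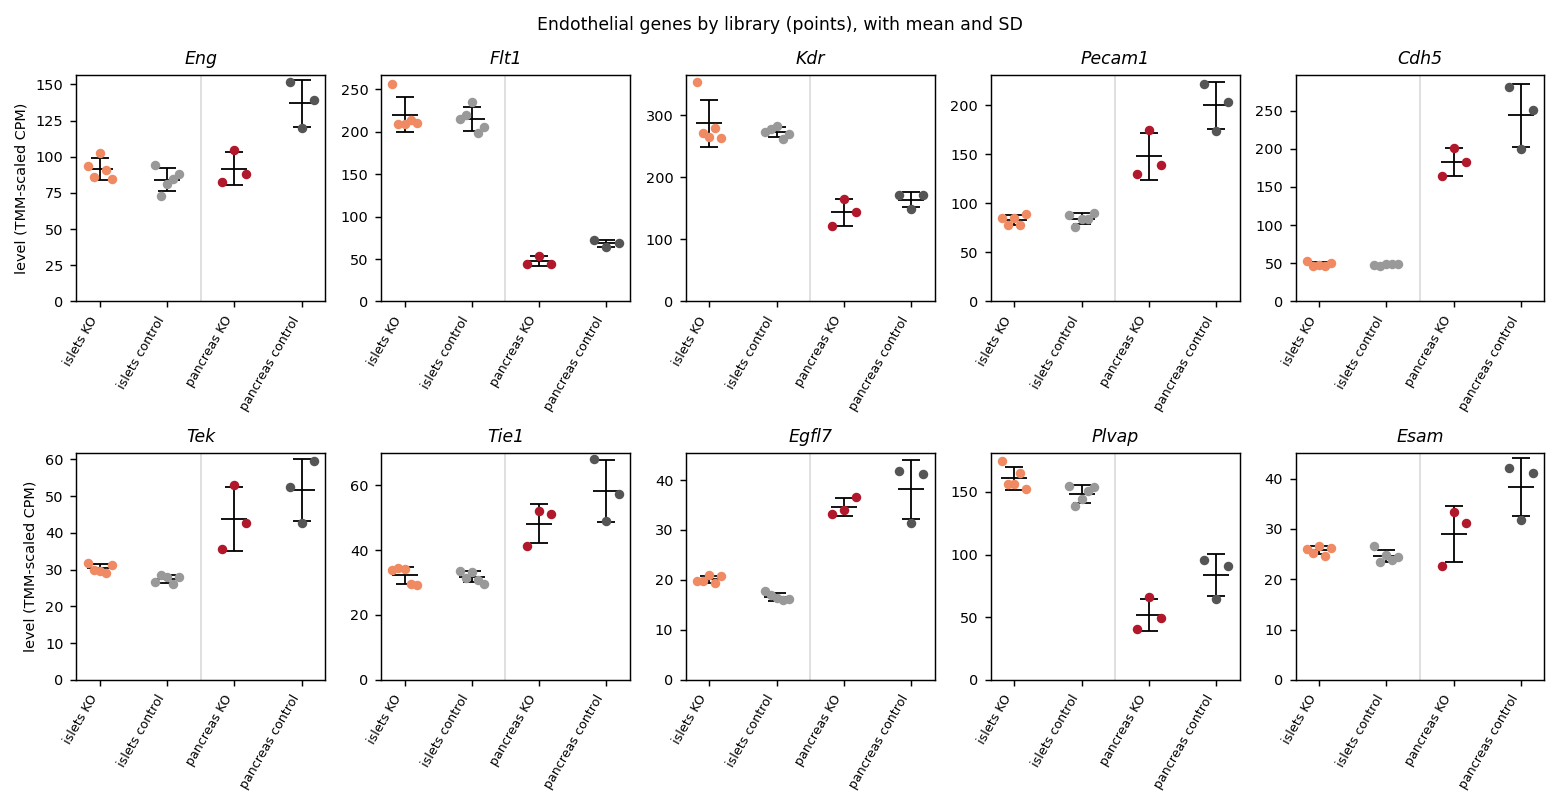
TMM-scaled CPM (vertical axis, from 0) of each endothelial gene in every library (points), by group, with the mean (horizontal mark) and SD (error bar; n = 5 per islet group, n = 3 per pancreas group). Eng and Flt1 are lower in every KO pancreas than in any control pancreas, and Egfl7 is higher in every KO islet library than in any control islet library; KO 055 stands above the other islets for Flt1, at 256.4 CPM, and Kdr, at 353.6 CPM.

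The islet and pancreas effects were compared directly in 1 model over the 16 libraries, as the islet fold change minus the pancreas fold change. Tissue, age and sex differ together between islets and pancreata, so their parts in this difference cannot be told apart. The difference was positive for 10 of 10 genes, as for 52.7% of all 15823 genes tested (8 of 10 when scaled to the further endothelial genes and 7 of 10 when scaled to pan-epithelial genes), and 5 of the 10 passed the threshold, against 3.94% of all genes in that direction. The largest was that of Plvap, 0.82 (SE 0.181, adjusted p = 0.0139), followed by Eng, 0.71 (SE 0.137, adjusted p = 0.00631), and Flt1, 0.57 (SE 0.119, adjusted p = 0.00925). Egfl7 and Cdh5 each differed by 0.44 (adjusted p = 0.0265 and 0.0396). This model fits 1 spread per gene to both tissues, although the 10 genes on average varied more within the pancreas groups. For Plvap, Egfl7 and Cdh5 the SE of the difference (0.181, 0.112 and 0.124) was below that of the pancreas fold change alone (0.195, 0.114 and 0.129). For Eng and Flt1 it was above (0.137 and 0.119, against 0.111 and 0.0930). The p-values of the difference can therefore understate the spread between pancreata. The median of the 10 was 0.44, against 0.016 over all genes. A positive difference was not particular to endothelial genes. Of 18 pan-epithelial genes 12 passed in the same direction (median 0.48), and of 8 islet hormone genes 6 passed (median 1.05). Of 12 pericyte, 12 leukocyte and 12 fibroblast and mesenchyme genes none passed.

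For Pecam1, Esam, Tek, Tie1 and Kdr the difference was 0.42, 0.49, 0.41, 0.31 and 0.28 and missed the threshold, with adjusted p of 0.0613, 0.0582, 0.118, 0.202 and 0.259. The differences of Eng and Flt1 passed with each library left out in turn, whereas that of Plvap was lost without pancreas control 02 (adjusted p = 0.0533). Egfl7 was lost without pancreas control 02, pancreas control 13 or pancreas KO 01 (adjusted p = 0.0912, 0.0661 and 0.0678), and Cdh5 passed in only 3 of 16 such fits. For Egfl7 the larger of the 2 fold changes was the islet one (0.28 in islets and -0.14 in pancreata), while for Eng it was the pancreas one (0.12 in islets and -0.58 in pancreata).

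**Figure D4:**
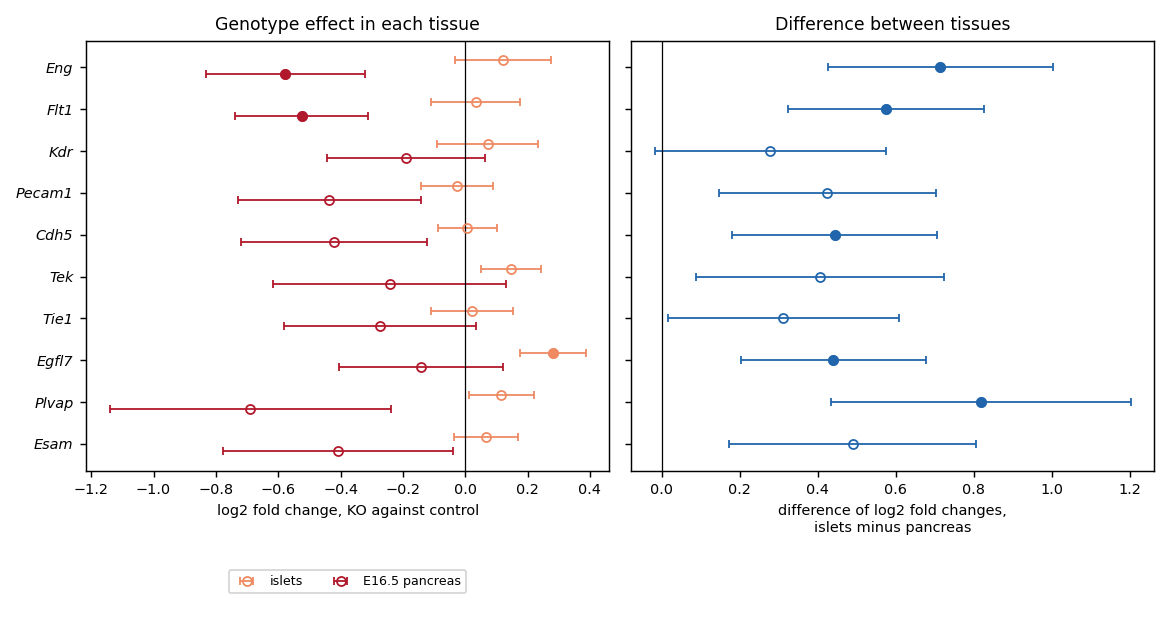
Left, log2 fold change of KO against control for each endothelial gene in islets and in E16.5 pancreata, with 95% intervals from the edgeR fits; right, the islet fold change minus the pancreas fold change with its 95% interval. Filled points have an adjusted p under 0.05: Egfl7 in islets (0.28), Eng (-0.58) and Flt1 (-0.53) in pancreata, and 5 genes in the difference, from 0.44 for Egfl7 and Cdh5 to 0.82 for Plvap.

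A list of 25 further endothelial genes was set beside the 10. In pancreata 1 of the 25, Robo4, a guidance receptor of endothelial cells, fell (log2 fold change -0.71, adjusted p = 0.0489), against 2.68% of all genes. A fold change below 0 was found for 21 of 25, against 50.2% of all genes, with a median of -0.30. DESeq2 called 5 of the 25 lower and 1 higher in pancreata, and limma-voom 4 lower. Robo4 had 22.3 ± 4.46 CPM in KO pancreata and 36.3 ± 6.49 CPM in control pancreata (SD, n = 3 each), and its call was lost without any 1 control, KO 01 or KO 19 (adjusted p from 0.0602 to 0.195) and in the robust fit (0.0568). It was also lost with DESeq2 size factors in edgeR (0.0516) and a filter of at least 1 CPM (0.0518). Scaling to the further endothelial or pan-epithelial genes lost it too (0.262 and 0.160), and Robo4 passed in 7 of 17 alternatives. In islets none of the 24 that could be tested passed with edgeR (median 0.04), 3 had an unadjusted p under 0.05, and 1 passed with DESeq2 and none with limma-voom. In the difference between tissues, 6 of the 25 had an effect that was higher in islets than in pancreata, against 3.94% of all genes. These were Sox18 by 0.90, Robo4 by 0.77, Esm1 by 0.73, Emcn by 0.61, She by 0.52 and Adgrl4 by 0.49. Sox18 is a transcription factor of vessels and Emcn an endothelial sialomucin.

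Genes upstream and downstream of the receptors were looked at by pathway. Vegfa, the main VEGF ligand, which was singled out after its values were seen, had 475.0 ± 85.7 CPM in KO islets and 463 ± 34.2 CPM in control islets (SD, n = 5 each), and a mean of 88 ± 8.90 CPM in KO pancreata and 96.7 ± 6.01 CPM in control pancreata (SD, n = 3 each). It passed in neither tissue (adjusted p = 0.980 in islets and 0.349 in pancreata). Of the 8 VEGF ligands and co-receptors tested, 1 rose in pancreata, against 3.75% of all genes: Nrp2, a neuropilin co-receptor used by lymphatic endothelium and by neurons (0.44, adjusted p = 0.0248). None of the 7 angiopoietin pathway genes tested in pancreata or the 6 in islets passed with edgeR, DESeq2 or limma-voom, and 2 in pancreata and 0 in islets had an unadjusted edgeR p under 0.05. Of 16 genes of BMP and TGF-beta signalling, 1 rose in pancreata, the type II receptor gene Bmpr2 (0.33, adjusted p = 0.0248), against 3.75% of all genes.

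Over all genes tested in pancreata, 3.75% rose and 2.68% fell, and the counts of the next lists should be read beside these shares. Of 12 Notch and Apelin genes, 1 rose in pancreata, Hey2, a Notch target (0.65, adjusted p = 0.0419), while 8 of the 12 had a fold change below 0 and the median was -0.20. DESeq2 called 3 of the 12 lower and 1 higher, and limma-voom 1 lower and 1 higher. Of 20 endothelial transcription factors, Gata2 rose by 1.84 (adjusted p = 0.0187) and Hhex fell by 0.46 (adjusted p = 0.0380). Gata2 is also a gene of blood progenitors and sympathetic neurons, and Hhex also of pancreatic and liver epithelium. Of 18 junction and adhesion genes, Cdh2, shared with mesenchyme and nerve, rose by 0.68 (adjusted p = 0.0463). Jup and F11r, shared with epithelium, fell by 0.28 and 0.24 (adjusted p = 0.0419 and 0.0423; Jup and F11r turned positive under pan-epithelial scaling, and F11r also under further endothelial scaling). In pancreata DESeq2 called 3 transcription factors higher and 1 lower, 2 BMP and TGF-beta genes higher, and 1 VEGF gene in each direction. In islets no gene of these 6 lists passed with edgeR; at an unadjusted p under 0.05 there were 1 VEGF gene, 0 angiopoietin genes, 6 BMP and TGF-beta genes, 1 Notch or Apelin gene, 1 transcription factor and 0 junction genes. With DESeq2, 1 VEGF gene and 1 transcription factor passed in islets. The calls of Nrp2, Bmpr2, Hey2 and Gata2 in pancreata were each lost when any 1 control was left out (adjusted p from 0.0724 to 0.158), and that of Hey2 also without KO 18 or KO 19 (adjusted p = 0.0574 and 0.0902). Those of Jup and F11r were lost with any 1 of the 6 libraries left out (adjusted p from 0.0568 to 0.183). That of Cdh2 was lost without any 1 control, without KO 18 (adjusted p from 0.0503 to 0.166) and in the robust fit (0.0568), and of the 6 fits with 1 library left out, Hhex passed only in that without KO 18. Without control 02 or control 13, when no gene of the table passed, every call named here for pancreata was lost. With scaling to fibroblast and mesenchyme genes, the calls of Nrp2, Bmpr2, Hey2 and Cdh2 were lost (adjusted p = 0.493, 0.709, 0.239 and 0.133). So were those of Hhex, Jup and F11r (0.0904, 0.354 and 0.422), while Gata2 passed. With pan-epithelial scaling, Hhex missed the threshold (-0.06, adjusted p = 0.701), while Nrp2, Bmpr2, Hey2, Gata2 and Cdh2 passed. Under that scaling 9733 of all 14914 genes passed as higher and the median of all genes was 0.40, so passing upward there sets no gene apart.

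Lymphatic vessels are lined by a separate endothelium, whose genes were counted apart. Of 6 lymphatic genes tested in pancreata, 2 rose, against 3.75% of all genes: Reln, by 0.95 (adjusted p = 0.0176), and Mmrn1, by 0.82 (adjusted p = 0.0207). Reln encodes reelin, which lymphatic endothelium and neurons secrete, and Mmrn1 encodes multimerin, also a platelet protein. The 6 genes summed to 374, 397 and 357 CPM in KO pancreata, against 261, 286 and 271 CPM in control pancreata, and the sums did not overlap. The median was 0.39, and 5 of 6 were above 0, the exception being Prox1 (-0.08), which is also an epithelial gene of the pancreas. Lyve1 is also on the list of liver sinusoidal endothelium. That list and the leukocyte list had medians of 0.45 and 0.47 in pancreata, so positive fold changes were not particular to lymphatic genes. Reln missed the threshold without any 1 control (adjusted p = 0.122, 0.0892 and 0.0665) and Mmrn1 without control 02 or 13 (adjusted p = 0.127 and 0.0724).

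Markers of other cells also differed between the pancreas groups, where 2.68% of all genes fell and 3.75% rose. Of 18 pan-epithelial genes, 12 fell, with a median of -0.44, and they summed to 2465 to 2566 CPM in KO pancreata, against 3076 to 3556 CPM in control pancreata. Of 8 islet hormone genes, 7 fell, with a median of -1.12, and they summed to 815 to 1364 CPM in KO pancreata, against 2205 to 2955 CPM in control pancreata. Liver genes, which mark a neighbouring organ, had a median of 1.60, with 9 of 10 above 0, but only Ttr, which islet cells also express, passed, and it fell (-0.50, adjusted p = 0.0235). They summed to 1955 CPM in KO 01 and to 454 and 499 CPM in the other KO pancreata, against 463 to 655 CPM in control pancreata. Without KO 01, Eng and Flt1 had log2 fold changes of -0.50 and -0.46 and passed (adjusted p = 0.0310 and 0.0267). The 16 acinar enzyme genes summed to 55800 to 105900 CPM in KO pancreata, against 113200 to 134100 CPM in control pancreata, lowest in KO 01, the library with the lowest endothelial level. Leukocyte genes summed to 233 to 410 CPM in KO pancreata, against 193 to 270 CPM in control pancreata, and 1 of 12, Coro1a, rose. DESeq2 called 4 leukocyte genes higher and 3 acinar genes lower, where edgeR called no acinar gene. Of 12 pericyte genes, which mark the cells that wrap capillaries, none passed with edgeR, DESeq2 or limma-voom (median -0.12, 2 at an unadjusted edgeR p under 0.05), and of 12 fibroblast and mesenchyme genes 1 rose, Fn1 (0.53, adjusted p = 0.0475). No marker of these lists was at 0 in any pancreas library. The part of these shifts in the endothelial result was not tested. Scaled to the pan-epithelial genes, Eng and Flt1 had log2 fold changes of -0.17 and -0.12 (adjusted p = 0.264 and 0.388) while the median of all genes was 0.40. Scaled to the 25 further endothelial genes, they had -0.31 and -0.26 (adjusted p = 0.422 and 0.492) while the median of all genes was 0.27. Scaled to the 12 fibroblast and mesenchyme genes, all 10 endothelial genes were below 0 with a median of -0.55, and Eng, Flt1 and Plvap passed at -0.71, -0.66 and -0.83 (adjusted p = 0.0172, 0.0325 and 0.00377), while the median of all genes was -0.12.

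**Figure D5:**
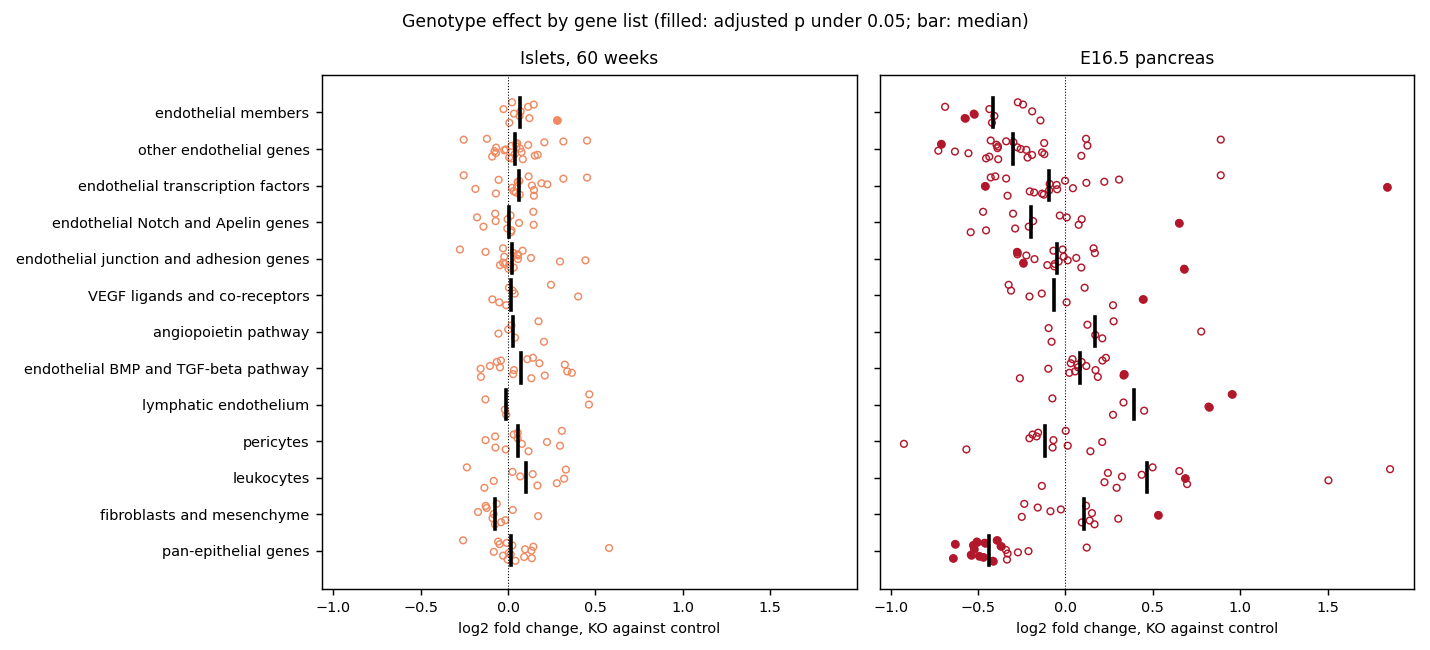
Log2 fold change of KO against control (horizontal axis) for every tested gene of 13 lists (rows), in islets on the left and E16.5 pancreata on the right; filled points have an adjusted p under 0.05 and black bars are medians. In pancreata the endothelial genes described here have a median of -0.41, the pan-epithelial genes of -0.44 and the lymphatic genes of 0.39; in islets Egfl7 is the only filled point.

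Within groups, the mean deviation of the 10 genes was smaller in islets than in pancreata, given here as a description. Each library's deviation from its group mean, averaged over the 10 genes, had a root mean square of 0.05 on the log2 scale over the 10 islet libraries and 0.16 over the 6 pancreata. Of the 10 genes, each of which is part of that average, the nearest to it was Esam in islets, with a root mean square distance of 0.04, and Eng in pancreata, with 0.04. In islets only Esam and Cdh5 lay nearer to the average than its own root mean square of 0.0456. The others lay at 0.0520 to 0.0967. This distance also grows with the size of a gene's own deviation, so it does not tell how far the deviation was shared. Kdr, for example, lay at 0.0886 while the root mean square of its own deviation was 0.1157. In pancreata every distance, up to 0.1145 for Egfl7, was below the 0.1624 of the average. Outside the 10 genes, the closest profiles among 14221 genes in pancreata were those of A630072M18Rik, Hdac7, Chpf, Akna and Tbc1d10a, at distances of 0.0130 to 0.0255, and Cd93 was the nearest of the 25 further endothelial genes, at rank 36. In islets the closest among 13157 genes were Cdc37, Rnf6, Gtf2f1, Pelp1 and Sept7, at distances of 0.0177 to 0.0213, and the nearest further endothelial gene was Rasip1, at rank 1928.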

How the data were processed

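Messenger RNA was sequenced in 16 mouse libraries, which were grouped by the genotype, tissue and animal number of the labels. The deposited values are raw counts of reads, whole numbers whose totals differ between libraries. Per the labels' protocols, the kit was Kapa mRNA HyperPrep. Trimmomatic, STAR 2.6.0, HTSeq 0.11.1, edgeR and mm10 are named, with no roles, per the submitters' processing notes; annotation version and strand use: not given in the sources used here. Wide microRNA and Eno1b entries of the tables span some of the genes by position.

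From the counts, edgeR 4.0.16 (R 4.3.3) gave quasi-likelihood F tests with TMM scaling within each tissue and, for the difference between tissues, over all 16 libraries. The default filterByExpr filter was used, p-values were adjusted by the Benjamini-Hochberg method over all genes tested, and the threshold was 0.05. Each standard error is the fold change divided by the root of F. The fits were run on counts simulated from the fitted spread of each gene. Those counts held no shift in cell content, sex or litter, so the run cannot speak for such shifts in these pancreata. The depth, 14866194 to 32385042 counts, and at least 399 reads per gene give a counting error alone of 1.17% to 4.83% (coefficient of variation, over genes and groups). The spread between animals was at or below it for 2 of the 10 genes in KO islets, 3 in control islets and 0 in either pancreas group. No 2 libraries of a group agreed within sampling noise (lowest chi-square per degree of freedom 4.90).

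The genes, the lists and the tests were chosen with earlier results of these data known. The rule for naming took the 10 genes, Tff2, in each list up to 3 called genes of lowest p or else the 2 most abundant, and the 5 genes with the closest profile. Genes outside the 10 are given here only where a result turns on them. Vegfa, Prox1, Rasip1, Cd93, Robo4, Esm1, Emcn, Xist, Ddx3y and Pgf were added after their values were seen. Alternatives covered scaling (other factors, library totals, or the summed counts of further endothelial, pan-epithelial or fibroblast genes), filters, DESeq2 1.42.0, limma-voom (limma 3.58.1) with quality weights, a robust fit, a fit over all libraries and each library left out.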

Additional observations from a re-analysis of the deposited data

Results flagged for a closer look

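A total of 5 genes are listed because the KO effect differed between tissues by the test of the difference itself, islets minus pancreas on the log2 scale. Tissue, age and sex cannot be told apart in this difference. The test fits 1 spread per gene to both tissues, so its p-values can understate the spread between pancreata. The values were 0.82 for Plvap, 0.71 for Eng, 0.57 for Flt1, 0.44 for Egfl7 and 0.44 for Cdh5 (edgeR, adjusted p = 0.0139, 0.00631, 0.00925, 0.0265 and 0.0396).

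In the islets of KO animal 055, 2 values stood far from the rest of their group. Flt1 was at 256.4 CPM, with the next KO library at 214.1 CPM, and Kdr at 353.6 CPM, with the next at 279.0 CPM. The gap took 0.880 and 0.821 of the range of the 5 KO libraries. Both come from the same library, and 20 groups of values were examined, in which chance flags about 1 in 20. Without KO 055 the islet log2 fold changes were -0.03 for Flt1 and -0.02 for Kdr.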

How the results depend on the processing

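No paired analysis was possible because the groups compared share no animal number. In pancreata the count of the 10 genes past the threshold was 0 when scaled to the further endothelial genes, 0 when scaled to pan-epithelial genes, 5 with DESeq2 and 6 in the fit over all libraries, and 0 to 4 with 1 library left out. Over all genes it was 9776 with pan-epithelial scaling, 1550 with DESeq2, 2070 in the fit over all libraries and 0 to 1035 with 1 library left out. With library totals, 779 genes were higher and 179 lower in the KO. In islets the count was 0 with library totals, further endothelial scaling, totals without hormone genes, no filter, the robust fit, the fit over all libraries and every library left out. Over all islet genes it was 112 with DESeq2 and 5 to 26 with 1 library left out. In the difference between tissues it was 3 with library totals, 0 with pan-epithelial scaling, 1 (Plvap) with further endothelial scaling and 2 to 8 with 1 library left out; over all genes it was 8098 with pan-epithelial scaling and 515 to 1186 with 1 library left out. The last 2 scalings of the difference were chosen after seeing the data.

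Some fold changes turned direction. Under further endothelial scaling, pancreas values were 0.063 for Kdr, 0.012 for Tek, 0.14 for Egfl7 and 0.026 for F11r, islet values -0.015 for Flt1, -0.037 for Cdh5 and -0.022 for Tie1, and differences -0.042 for Kdr and -0.018 for Tie1. Under pan-epithelial scaling, pancreas values were 0.21 for Kdr, 0.15 for Tek, 0.13 for Tie1, 0.25 for Egfl7, 0.13 for Jup and 0.17 for F11r, and differences -0.14 for Kdr, -0.0077 for Tek, -0.11 for Tie1 and -0.068 for Vegfb. Cdh5 in islets was -0.0023 with limma-voom. With 1 islet library left out, ranges were -0.023 to 0.026 for Cdh5, -0.028 to 0.070 for Flt1, -0.015 to 0.10 for Kdr and -0.0017 to 0.054 for Tie1. These scalings moved the median of all genes, to which a fold change should be read. In pancreata Eng and Flt1 passed in 11 of 17 alternatives, and in islets Egfl7 in 4 of 20. Beyond that, the cause of these changes was not tested.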

Other observations

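Among the genes of the VEGF family and the endothelial transcription factors in islets, 2 were higher in the KO at an unadjusted p under 0.05 but did not pass over all genes. Sox18 had 12.5 ± 1.21 CPM in KO islets and 9.14 ± 1.102 CPM in control islets (log2 fold change 0.45, edgeR adjusted p = 0.114). Pgf, the gene of placental growth factor, a ligand of VEGFR1, had 13.7 ± 1.78 CPM in KO islets and 10.4 ± 1.02 CPM in control islets (0.40, adjusted p = 0.223; SD, n = 5 each). In islets DESeq2 called 1 gene of the VEGF list, 1 of the transcription factors and 1 of the further endothelial genes. Which genes these were is not given here. Sox18 is on the last 2 of these lists, so their counts are not independent. Both were chosen after their values were seen.

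Of 7 genes of liver sinusoidal endothelium, 7 of red blood cells and 6 of megakaryocytes tested in pancreata, none passed, with medians of 0.45, 0.40 and 0.47. In islets no gene of these lists passed either. With DESeq2, 1 liver sinusoidal and 2 red blood cell genes passed in pancreata.

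In islets 6 of 16 genes of BMP and TGF-beta signalling had an unadjusted p under 0.05, against 7.18% of all genes, although none passed with edgeR, DESeq2 or limma-voom. Smad6, Smad7, Id2 and Bmp6 had log2 fold changes of 0.33, 0.18, 0.34 and 0.21, and Smad1 and Smad5 of -0.16 and -0.10 (edgeR, adjusted p from 0.487 to 0.653). Smad6 and Smad7 encode inhibitors of this signalling, and Smad1 and Smad5 encode its transducers. Of the 16 genes, 10 had a fold change above 0 and 6 below 0, and the signalling itself was not measured. These genes were named after their values were seen.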
